A study of Mus musculus with 6 samples.

Results

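The genes of the motile cilium, the beating organelle of ependymal and other multiciliated cells, were followed in mouse spinal cord 3 days after a clip crush (SCI) and after sham surgery. They were taken by name from the 36629 genes of the deposited tables. Every gene whose symbol starts with Dnah, Cfap, Rsph or Tekt followed by a digit was included, which gave 62 genes, and 20 further axonemal and ciliogenesis genes were included by symbol. No gene spelled Dnai followed by a digit was present. The resulting 82 genes code for transcription factors, structural proteins of the axoneme and their assembly factors, and 1 of them, Dnah2os, is a noncoding transcript.

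Both groups came from C57/BL6 mice aged 3 to 5 weeks, no genotype other than wild type is named, and the sex is not given. In the SCI group (3 libraries) the cord was laid bare by laminectomy, the removal of vertebral bone, at T9 and T10 and then squeezed for 5 seconds with a vascular clip of 60 g closing force. In the sham group (3 libraries) the laminectomy was made and the cord was not squeezed. Both groups shared pentobarbital anaesthesia, the laminectomy and the dissection of the T8 to T12 cord at day 3, so the groups differ by the crush and not by the surgery. Polyadenylated RNA was sequenced, and the values are the authors' FPKM (fragments per kilobase of gene, scaled to the size of the library). The labels number the libraries but do not say whether each came from 1 animal, so p-values measure the spread between these samples, which may be technical.

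A motile cilium is built around the axoneme, a ring of microtubule doublets around a central pair of single microtubules. Dynein arms on each doublet slide it along the next, nexin links and radial spokes turn the sliding into a beat, and tektins and other filaments stiffen the doublet wall from inside. In the spinal cord, multiciliated ependymal cells line the central canal and move cerebrospinal fluid. The transcription factor Foxj1 switches on most axonemal genes, together with RFX factors that bind X-box motifs in their promoters. Some genes named for cilia and flagella are also active in cells that carry no motile cilium.

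Most motile cilium genes had low levels in the bulk cord. Only 7 of the 82 averaged above 10 FPKM over the 6 libraries, 26 stayed under 1 FPKM in every library, and the median gene averaged 1.13 FPKM. The test covered the 44 genes that reached 1 FPKM in 3 or more libraries, and the other 38 were not tested. Of the tested genes, 2 reached 1 FPKM in SCI libraries only (Rfx2 and Cfap45) and 1 in sham libraries only (Spag6l). Each log2 change is the SCI mean minus the sham mean of log2(FPKM + 1), with limma's standard error (SE), and is smaller than the true fold for genes of low level. A gene counted as changed at a Benjamini-Hochberg adjusted p under 0.05 over all 17435 genes tested.

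In SCI cord, 16 of the 44 tested motile cilium genes fell and 2 rose, while 26 did not pass the test. The 16 that fell are 36.4% of the tested members, beside 30.8% of all genes tested, a share near that background. The 2 that rose are 4.55%, beside 26.7% of all genes tested. With median-ratio scaling of the FPKM, the split was 14 lower and 4 higher, beside 27.8% lower and 30.8% higher of all genes. Under quantile normalization it was 23 lower and 2 higher, beside 36.5% and 25.1%. Without sham replicate 1, 9 fell, beside 23.7% of all genes in that fit, and without sham replicate 2, 1 rose, beside 23.3%. The median log2 change of the tested members was -0.27, beside -0.08 for all genes tested, and 31 members had a negative and 13 a positive change. Of all 17435 genes tested, 9621 had a negative and 7814 a positive change. The SCI and sham libraries did not overlap in 22 members with SCI below (50%, beside 36.9% of all genes tested) and in 3 members with SCI above (beside 30.7% of all genes tested). Rfx2 and Cfap45, with SCI above, passed the filter through SCI libraries only, and Spag6l, with SCI below, through sham libraries only. The filter favours such differences. In a piece of tissue, fewer cells of a type and less RNA per cell cannot be told apart.

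Of the 18 changed members, 9 passed the test in every fit that was run, including those that left out 1 library. They are Tekt5, Cfap100, Ccdc153, Cfap65, Cfap97, Cfap69, Fam183b and Foxj1, which fell, and Rsph3a, which rose. The other 9 lost the call in at least 1 fit.

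**Figure D1:**
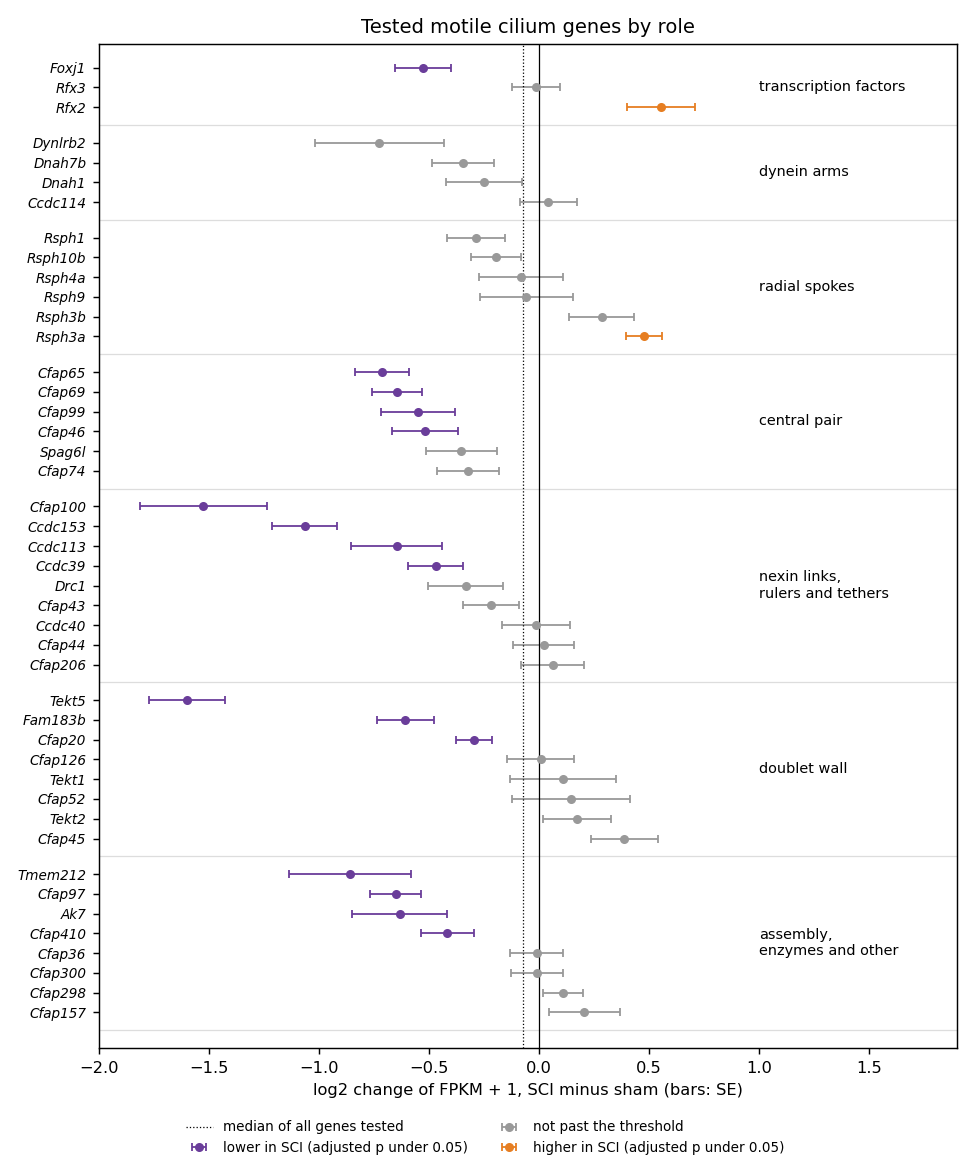
Log2 change of FPKM + 1, SCI minus sham, of the 44 tested motile cilium genes grouped by role, with bars for limma's SE. The 16 genes that fell lie to the left of the median of all genes tested (dotted line), down to -1.60 for Tekt5, and the 2 that rose, Rfx2 and Rsph3a, are the ones marked to the right.

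Among the transcription factors, Foxj1, the master regulator of motile ciliogenesis, fell in SCI cord, Rfx2 rose and Rfx3 did not pass the test. Foxj1 (ENSMUSG00000034227, chr11:116330704-116335399, minus strand, GRCm38) had 13.2, 11.3 and 14.8 FPKM in the SCI libraries and 22.0, 18.8 and 17.1 FPKM in the sham libraries. All SCI libraries were below all sham libraries. The means were 13.1 ± 1.75 FPKM in SCI and 19.3 ± 2.47 FPKM in sham (SD, n = 3 each), a log2 change of -0.53 (SE 0.13, limma adjusted p = 0.010). Rfx2, an RFX factor of ciliated and germ cells, had 1.45, 1.53 and 1.57 FPKM in SCI, against 0.95, 0.51 and 0.71 FPKM in sham. It passed the filter through its SCI libraries only, which favours a higher SCI level. Its groups did not overlap, with SCI above, and the log2 change was 0.55 (SE 0.15, limma adjusted p = 0.018). Without sham replicate 2 it was 0.46 and the call was lost (limma adjusted p = 0.060). Rfx3, the RFX factor known for ciliogenesis in mouse ependyma, had 3.44, 3.42 and 3.51 FPKM in SCI and 3.32, 3.32 and 3.89 FPKM in sham, overlapping groups (limma adjusted p = 0.92). Mcidas, which starts the multiciliated cell programme upstream of Foxj1, was under the filter, at 0.05, 0.17 and 0 FPKM in SCI and 0.37, 0.16 and 0.24 FPKM in sham.

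Because RFX factors act through X-box motifs, the RefSeq promoters (250 bases before to 50 after the start, GRCm38.p6, matched by symbol for 69 of the 82 genes) were searched on both strands for the RFX half-site GTTGCC. It was present in 29 of 69 motile cilium promoters (42.0%), beside 14.1% of all 27025 promoters. Among the genes that fell it was present in 6 of 13, among those that rose in 1 of 2, among those tested that did not pass in 12 of 22, and among those not tested in 10 of 32. A longer X-box, GTTNCC followed by 3 bases of any kind and GNAAC, was present in 7 of 69 (10.1%, beside 0.936% of all promoters), in 0 of 13 that fell and in 3 of 22 that did not pass. In 5 genes both forms were present, and they can overlap. The forkhead motif GTAAACA was present in 5 of 69 (7.25%, beside 4.05%). These motifs were chosen after several had been tried on these promoters, and a match is a description of the letters, not a bound site. The 100-base stretches below show the half-site in genes that fell, in Rfx2, which rose, and, for Cfap44, which did not pass, as part of the longer X-box. Each is printed 5′ to 3′ on the gene's strand, with the motif in capitals (GGCAAC is GTTGCC read on the other strand).
Ccdc153: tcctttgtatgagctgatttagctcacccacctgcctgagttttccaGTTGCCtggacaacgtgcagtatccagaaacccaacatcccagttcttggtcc
Ccdc113: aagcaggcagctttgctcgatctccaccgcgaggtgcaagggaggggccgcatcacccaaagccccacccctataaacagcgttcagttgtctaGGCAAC
Fam183b: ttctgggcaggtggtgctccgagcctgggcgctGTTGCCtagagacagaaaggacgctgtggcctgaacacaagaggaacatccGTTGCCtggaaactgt
Cfap46: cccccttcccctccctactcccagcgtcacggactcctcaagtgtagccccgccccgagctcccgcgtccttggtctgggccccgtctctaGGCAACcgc
Rfx2: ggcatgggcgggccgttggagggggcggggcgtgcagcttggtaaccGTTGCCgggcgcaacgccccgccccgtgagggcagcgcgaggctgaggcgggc
Cfap44: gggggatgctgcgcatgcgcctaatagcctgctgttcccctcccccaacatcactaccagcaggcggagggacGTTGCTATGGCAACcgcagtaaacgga
The Ccdc153 stretch is chr9:44240478-44240577 (plus strand), Ccdc113 chr8:95534000-95534099 (plus), Fam183b chr11:58801961-58802060 (minus), Cfap46 chr7:139683816-139683915 (minus), Rfx2 chr17:56831072-56831171 (minus) and Cfap44 chr16:44394699-44394798 (plus). The last 15 bases of the Ccdc113 stretch, with its half-site, precede the RefSeq start. By the gene position given with the FPKM values, they lie inside the gene.

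The genes of the nexin links, of the rulers that set the axonemal repeat and of the tethers between dyneins and doublets included some of the largest falls. Of 9 tested, 4 fell (44.4%, beside 30.8% of all genes tested), 0 rose (beside 26.7%) and 5 did not pass. The median log2 change was -0.33. Cfap100 (ENSMUSG00000048794, chr6:90403479-90428797, minus strand), whose Chlamydomonas counterpart tethers an inner dynein arm, had 2.54, 2.03 and 2.15 FPKM in SCI and 11.6, 4.64 and 10.4 FPKM in sham. The sham libraries spread widely, yet the lowest of them was above every SCI library. Cfap100 overlaps Zxdc on the opposite strand, and the strand setting of the quantification is not given. The means were 2.24 ± 0.267 FPKM in SCI and 8.86 ± 3.71 FPKM in sham (SD, n = 3 each), 3.96-fold lower in SCI, with a log2 change of -1.53 (SE 0.29, limma adjusted p = 0.0036).

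Ccdc153 (ENSMUSG00000070306, chr9:44240676-44247306, plus strand), a nexin link subunit and a marker of ciliated ependymal cells, had 3.27, 2.22 and 2.31 FPKM in SCI and 7.15, 5.69 and 6.63 FPKM in sham. The groups were well apart. The means were 2.60 ± 0.582 FPKM in SCI and 6.49 ± 0.740 FPKM in sham (SD, n = 3 each), 2.50-fold lower in SCI, with a log2 change of -1.06 (SE 0.15, limma adjusted p = 0.00099). Ccdc113, a protein of the ciliary base and axoneme, had 1.58, 1.44 and 1.85 FPKM in SCI and 4.20, 2.06 and 3.34 FPKM in sham, with SCI below throughout. Its log2 change was -0.65 (SE 0.21, limma adjusted p = 0.029), and the call was lost without SCI replicate 1 (-0.64), SCI replicate 2 (-0.60), sham replicate 1 (-0.48) or sham replicate 3 (-0.61), and with no filter on low values.

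Ccdc39 and Ccdc40 form the ruler that spaces dyneins and spokes along the doublet. Ccdc39 had 3.65, 2.93 and 2.77 FPKM in SCI and 4.97, 4.28 and 4.82 FPKM in sham, with no overlap and a log2 change of -0.47 (SE 0.12, limma adjusted p = 0.014). It missed the threshold without sham replicate 1 (-0.44) or sham replicate 3 (-0.45). Ccdc39 overlaps Ttc14 and Gm43140 on the opposite strand. Its partner Ccdc40 did not pass (limma adjusted p = 0.94), and whether the 2 genes differed from each other in their change was not tested. Drc1, a nexin link subunit, had a log2 change of -0.33 (limma adjusted p = 0.13), and Cfap43, a tether protein, one of -0.22 (limma adjusted p = 0.18). The tether gene Cfap44 (0.02) and Cfap206 (0.06), a spoke base protein in Tetrahymena, stayed near 0, with a sign that turned under quantile normalization.

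Of the tested genes of the doublet wall, 3 of 8 fell (37.5%, near the 30.8% of all genes tested). Of the others, 0 rose (beside 26.7%) and 5 did not pass, and the median log2 change of the 8 was 0.06. Tekt5 (ENSMUSG00000039179, chr16:10357948-10395490, minus strand), a tektin filament protein best known from mammalian sperm, had the most negative log2 change of the tested members. Among these, the ratio of group means was larger for Cfap100. Tekt5 had 11.8, 7.08 and 11.3 FPKM in SCI and 31.8, 30.2 and 33.3 FPKM in sham, and the groups were far apart. The means were 10.0 ± 2.57 FPKM in SCI and 31.8 ± 1.55 FPKM in sham (SD, n = 3 each), 3.17-fold lower in SCI, with a log2 change of -1.60 (SE 0.17, limma adjusted p = 0.00034). The tektins Tekt1 (log2 change 0.11, limma adjusted p = 0.72) and Tekt2 (0.17, limma adjusted p = 0.37), which are part of ciliary axonemes in many tissues, did not pass. Tekt5 and Tekt2 share 0 stretches of 75 bases in their longest GENCODE transcripts, as do Tekt1 and Tekt2. Tekt3 and Tekt4 were not tested, at means of 0.0800 and 0.960 FPKM in SCI and 0.0400 and 0.953 FPKM in sham.

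Fam183b (ENSMUSG00000049154, chr11:58792797-58801960, minus strand), a protein of the doublet lumen, had 4.09, 4.99 and 5.07 FPKM in SCI and 9.04, 7.03 and 7.15 FPKM in sham, with no overlap and a log2 change of -0.61 (SE 0.13, limma adjusted p = 0.0059). Cfap20, at the inner junction of the doublet, had 11.9, 12.3 and 12.2 FPKM in SCI and 15.5, 14.1 and 15.7 FPKM in sham. Both groups were narrow and did not overlap, with a log2 change of -0.30 (SE 0.08, limma adjusted p = 0.016). The call was lost with median-ratio scaling (-0.21) and without SCI replicate 1 (-0.28), sham replicate 1 (-0.28) or sham replicate 3 (-0.27). Cfap45, which binds inside the doublet, passed the filter through its SCI libraries only, which favours a higher SCI level. It had 1.69, 1.44 and 1.13 FPKM in SCI and 0.88, 0.87 and 0.78 FPKM in sham, with SCI above throughout. It did not pass the test (log2 change 0.39, limma adjusted p = 0.061). It passed with median-ratio scaling (0.43, limma adjusted p = 0.041) and without SCI replicate 3 (0.48, limma adjusted p = 0.048). Cfap52, another inner protein (0.15), and Cfap126, known as flattop, a basal body protein (0.01), did not pass either, and the sign of Cfap126 turned under quantile normalization and when mitochondrial and haemoglobin genes were left out.

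The central pair genes were below sham in every tested case. Of 6 tested, 4 fell (66.7%, beside 30.8% of all genes tested) and 2 did not pass, with a median log2 change of -0.54. Beside 36.9% of all genes tested, each SCI library was below each sham library in all 6. Of these, Spag6l passed the filter through its sham libraries only, which favours such a difference. Cfap65 (ENSMUSG00000047021, chr1:74902071-74935599, minus strand), needed for the flagellum of mouse sperm, had 2.70, 2.64 and 2.25 FPKM in SCI and 5.47, 4.43 and 4.48 FPKM in sham, a log2 change of -0.71 (SE 0.12, limma adjusted p = 0.0025). Cfap69 (ENSMUSG00000040473, chr5:5579278-5664239, minus strand), known in mouse from sperm and olfactory cilia, had 5.6, 4.22 and 4.50 FPKM in SCI and a narrow 7.98, 7.92 and 8.07 FPKM in sham, a log2 change of -0.65 (SE 0.11, limma adjusted p = 0.0026).

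Cfap46 and Cfap99, whose Chlamydomonas counterparts lie on the central apparatus, also fell. Cfap46 had 1.75, 1.26 and 1.62 FPKM in SCI and 2.80, 2.17 and 2.99 FPKM in sham, a log2 change of -0.52 (SE 0.15, limma adjusted p = 0.020). It overlaps Gm4459 on the same strand, so its reads may be shared, and its call was lost without sham replicate 1 (-0.49) or sham replicate 3 (-0.45). Cfap99 had 0.74, 1.03 and 1.08 FPKM in SCI and 1.89, 2.28 and 1.43 FPKM in sham, a log2 change of -0.55 (SE 0.17, limma adjusted p = 0.025), lost without SCI replicate 1 (-0.47), sham replicate 1 (-0.54) or sham replicate 2 (-0.45). Both calls were also lost with no filter on low values. Spag6l, a core central pair protein (-0.35, limma adjusted p = 0.097), and Cfap74 (-0.32, limma adjusted p = 0.083) did not pass. Hydin, whose loss causes hydrocephalus in mice, was under the filter, at 0.25, 0.25 and 0.22 FPKM in SCI and 0.60, 0.55 and 0.45 FPKM in sham. Of the 12 central pair genes only Spag17, also under the filter, had a higher mean in SCI. It had 0.22, 0.20 and 0.18 FPKM in SCI and 0.17, 0.19 and 0.19 FPKM in sham, overlapping groups.

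Among the radial spoke genes, 1 of 6 tested rose (16.7%, beside 26.7% of all genes tested), 0 fell (beside 30.8%) and 5 did not pass. The median log2 change was -0.07. Rsph3a (ENSMUSG00000073471, chr17:7945614-7979824, plus strand), a spoke stalk protein that also anchors protein kinase A, had 15.8, 16.2 and 14.9 FPKM in SCI and 11.4, 10.4 and 11.1 FPKM in sham. The groups were narrow and did not overlap, with means of 15.6 ± 0.678 FPKM in SCI and 10.96 ± 0.514 FPKM in sham (SD, n = 3 each). Rsph3a was 1.42-fold higher in SCI, with a log2 change of 0.47 (SE 0.08, limma adjusted p = 0.0024). Its near copy Rsph3b had 11.5, 8.85 and 12.6 FPKM in SCI and 9.10, 7.52 and 9.76 FPKM in sham, overlapping groups that did not pass (log2 change 0.28, limma adjusted p = 0.14). It passed with median-ratio scaling (0.37, limma adjusted p = 0.034) and without SCI replicate 2 (0.42, limma adjusted p = 0.026). Of the 75-base stretches of Rsph3a 66.4% also occur in Rsph3b, and 69.3% the other way round, so how reads were divided between them is uncertain. Their sum was 27.3, 25.02 and 27.4 FPKM in SCI and 20.5, 17.9 and 20.9 FPKM in sham. Rsph3a also overlaps E430024P14Rik on the opposite strand.

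The spoke head genes Rsph1 (log2 change -0.29, limma adjusted p = 0.10), Rsph4a (-0.08), Rsph9 (-0.06) and Rsph10b (-0.20, limma adjusted p = 0.18) did not pass. The sign of Rsph9 turned with median-ratio scaling, and Rsph10b overlaps Pms2 on the same strand. Rsph6a, a testis paralogue of a spoke head protein, was listed at 0 in every SCI library and at 0.08, 0.05 and 0 FPKM in sham.

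The dynein arm genes were low, and only 4 of 17 could be tested, of which 0 passed in either direction (median log2 change -0.30). Of all genes tested, 30.8% fell and 26.7% rose. The 15 Dnah heavy chains, the motor subunits of the arms, averaged from 0.0917 to 1.65 FPKM. Of the 15, 12 had a lower mean in SCI than in sham, beside 17381 of all 36629 genes, which include genes listed at 0. Of the 13 heavy chains under the filter, Dnah3, Dnah7c and Dnah9 had SCI below throughout, and Dnah10 had SCI above throughout. Over all genes tested, 36.9% had SCI below throughout and 30.7% SCI above, and the shares under the filter were not counted. Summed, the 15 heavy chains had 8.87, 8.07 and 7.68 FPKM in SCI and 11.1, 9.36 and 10.7 FPKM in sham. Dnah7b, an inner arm heavy chain, had 1.49, 1.14 and 1.38 FPKM in SCI and 1.99, 1.71 and 2.21 FPKM in sham, with no overlap, and did not pass (log2 change -0.35, limma adjusted p = 0.068). Its near copies share from 19.3% to 26.1% of their 75-base stretches, so its value is uncertain. Dnah1, an inner arm heavy chain, had a log2 change of -0.25 (limma adjusted p = 0.25). Dynlrb2, a dynein light chain of multiciliated cells and testis, had 2.58, 2.16 and 4.84 FPKM in SCI and 8.39, 4.08 and 5.27 FPKM in sham, overlapping groups (log2 change -0.73, limma adjusted p = 0.068). It passed under quantile normalization (-0.83, limma adjusted p = 0.034). The same held without SCI replicate 3 (-0.99, limma adjusted p = 0.018) and without sham replicate 2 (-0.92, limma adjusted p = 0.047). Ccdc114, of the outer arm docking complex, stayed at 0.04, with a sign that turned under quantile normalization.

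Among the assembly factors, enzymes and remaining genes, 4 of 8 tested fell (50%, beside 30.8% of all genes tested). Of the others, 0 rose (beside 26.7%) and 4 did not pass, and the median log2 change of the 8 was -0.22. Tmem212, a membrane protein used as a marker of ciliated ependymal cells, had 1.82, 2.59 and 2.29 FPKM in SCI and 8.27, 3.79 and 3.50 FPKM in sham. Sham replicate 1 was far above the other sham libraries, and all SCI libraries were below all sham libraries. The log2 change was -0.86 (SE 0.28, limma adjusted p = 0.031), and it was -0.53 without sham replicate 1, where the call held. The call was lost without SCI replicate 1 (-0.77) or SCI replicate 3 (-0.88), and with no filter on low values. Ak7, an adenylate kinase of motile cilia, had the same uneven sham levels, with 1.75, 2.01 and 1.80 FPKM in SCI and 5.19, 3.00 and 2.50 FPKM in sham. Its log2 change was -0.63 (SE 0.21, limma adjusted p = 0.038). It lost the call without SCI replicate 1 (-0.61), SCI replicate 2 (-0.67), SCI replicate 3 (-0.62), sham replicate 1 (-0.39) or sham replicate 2 (-0.71), with median-ratio scaling (-0.57) and with no filter.

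Cfap97 (ENSMUSG00000031631, chr8:46151771-46195590, plus strand), whose Drosophila counterpart is needed for axoneme assembly, had 11.04, 9.16 and 12.4 FPKM in SCI and 18.4, 17.0 and 17.1 FPKM in sham. The groups were clearly apart, with a log2 change of -0.65 (SE 0.11, limma adjusted p = 0.0026). Cfap97 overlaps Snx25 on the opposite strand. Cfap410, a basal body protein, had 8.84, 7.03 and 8.55 FPKM in SCI and 12.6, 10.2 and 10.8 FPKM in sham, with no overlap. Its log2 change was -0.42 (SE 0.12, limma adjusted p = 0.020), and without sham replicate 1 it was -0.34 and no longer past the threshold.

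The 2 most abundant members, Cfap36 and Cfap298, did not pass. Of the other 5 members that averaged above 10 FPKM, Tekt5, Foxj1, Cfap97 and Cfap20 fell and Rsph3a rose. Over all 17435 genes tested, 10024 were changed in either direction. Cfap36, which binds the small GTPase Arl3, had 84.5, 61.8 and 75.4 FPKM in SCI and 71.6, 78.1 and 72.2 FPKM in sham, with SCI replicates on both sides of the sham libraries. Its log2 change was -0.01 (SE 0.12, limma adjusted p = 0.94), with a sign that turned under median-ratio scaling and quantile normalization. Cfap298, a dynein arm assembly factor, had 26.0, 22.5 and 21.6 FPKM in SCI and 22.1, 21.8 and 20.8 FPKM in sham (log2 change 0.11, limma adjusted p = 0.34). Cfap300, also of dynein arm assembly, was at -0.01, with a sign that turned with median-ratio scaling. Cfap157, a Foxj1 target in mouse, was at 0.21 (limma adjusted p = 0.30).

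**Figure D2:**
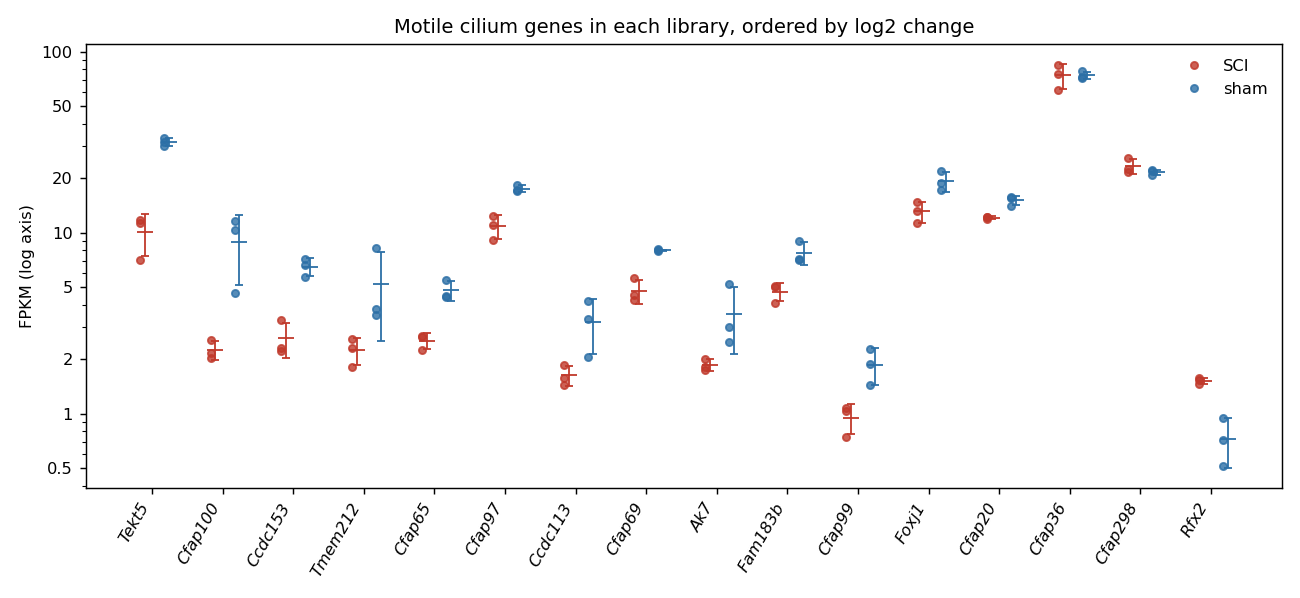
FPKM of 16 motile cilium genes in each SCI and sham library (points, log axis), with mean and SD (n = 3 each), ordered by log2 change. Tekt5, at the left, has the most negative log2 change, at 10.0 FPKM in SCI and 31.8 FPKM in sham, while the Cfap36 groups overlap.

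Of the 38 members under the filter, 30 had a lower mean in SCI than in sham (78.9%, beside 48.3% of the other genes under the filter that were above 0 in some library). With the filter lowered to 0.1 FPKM and a pseudocount of 0.1, 78 members could be tested, and 17 were lower and 3 higher, beside 21.9% lower and 20.6% higher of all genes in that fit. The 34 members added there had a median log2 change of -0.47, and that of all genes was -0.08. Among these 34, 1 fell and 1 rose. Cfap161, an inner protein of the doublet, had 0.36, 0.53 and 0.17 FPKM in SCI and 0.88, 1.22 and 1.11 FPKM in sham (log2 change -1.44, SE 0.39, limma adjusted p = 0.022). Dnah2os, the noncoding transcript on the strand opposite Dnah2, had 0.95, 2.89 and 0.60 FPKM in SCI and 0.47, 0.07 and 0.27 FPKM in sham (log2 change 1.98, SE 0.66, limma adjusted p = 0.046). Hydin did not pass there (log2 change -0.89, limma adjusted p = 0.059).

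**Figure D3:**
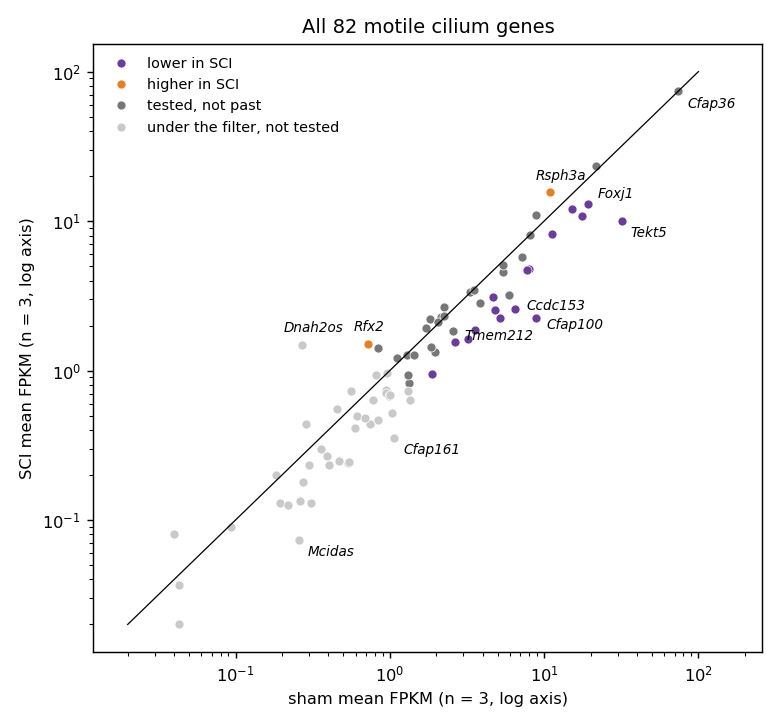
Mean FPKM of all 82 motile cilium genes in SCI (vertical) against sham (horizontal), n = 3 each, log axes, with the line of equal levels. Of the 82 genes 61 have a lower mean in SCI, beside 17381 of all 36629 genes, which include genes listed at 0. Cfap36, the most abundant, lies on the line, and 1 gene listed at 0 in SCI is drawn at 0.02 FPKM.

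Libraries of 1 group were not alike in these genes. Of the 44 tested members, 23 had their lowest SCI value in SCI replicate 2, while 28 had their lowest sham value in sham replicate 2 and 26 their highest in sham replicate 1. Over all genes tested, SCI replicate 2 was the lowest SCI library in 56.1%, sham replicate 2 the lowest sham library in 44.9% and sham replicate 1 the highest in 41.0%. SCI replicate 2 also held 6.16% of its FPKM in haemoglobin genes, against 0.656% and 0.211% in the other SCI libraries and 0.109% to 0.126% in sham. SCI replicate 3 was the highest SCI library in all 5 markers of sensory ganglia. Scn10a was at 6.60 FPKM there, listed at 0 in every other library, and Trpv1 at 2.86 FPKM, against 0.07 to 0.19 FPKM elsewhere. Calca (78.5 FPKM, against 30.3 and 30.9 FPKM in the other SCI libraries) and Isl1 (2.31 FPKM, against 0.58 and 0.52 FPKM) were also above every sham library. Prph (74.5 FPKM, against 28.7 and 14.9 FPKM) was below every sham library. Without SCI replicate 2, 14 members were lower and 3 higher, beside 28.3% and 27% of all genes. Without SCI replicate 3, 15 were lower and 3 higher, beside 30% and 24.9%. On log2(FPKM + 1), libraries correlated with r from 0.971 to 0.985 within SCI and of 0.987 within sham, against 0.839 to 0.907 between groups.

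Markers of the cell types of the cord also differed between the groups. Of all genes tested, 30.8% fell and 26.7% rose. The sum of the ciliated ependymal markers Foxj1, Ccdc153 and Tmem212, all of them members, was 18.3, 16.1 and 19.4 FPKM in SCI and 37.4, 28.3 and 27.2 FPKM in sham, and 3 of 3 fell. The sum of all 82 members was 305, 261 and 290 FPKM in SCI and 385, 335 and 354 FPKM in sham. Neuronal markers summed to 1120 to 1926 FPKM in SCI and 3513 to 4159 FPKM in sham, and 5 of 6 fell. Oligodendrocyte markers summed to 3602 to 4749 FPKM in SCI and 6036 to 6596 FPKM in sham (4 of 6 lower, 1 higher), and astrocyte markers to 3287 to 3473 FPKM in SCI and 1133 to 1415 FPKM in sham (3 of 6 higher, 3 lower). Microglia and macrophage markers summed to 1274 to 2091 FPKM in SCI and 150 to 188 FPKM in sham, and 6 of 6 rose. All 5 tested markers of endothelium, of fibroblasts and pericytes and of dividing cells rose as well. The part of these shifts in the levels of the cilium genes was not tested. Of the choroid plexus markers, another ciliated epithelium, the 4 with a value summed to 1.96 to 2.24 FPKM in SCI and 1.9 to 2.27 FPKM in sham. Among them Clic6 had 1.13 to 1.25 FPKM in SCI and 0.95 to 1.68 FPKM in sham and did not pass (limma adjusted p = 0.74). Kcnj13 and Folr1 stayed below 1 FPKM in every library, and Ttr, the most abundant choroid plexus transcript, reached at most 0.11 FPKM in SCI and 0.35 FPKM in sham.

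**Figure D4:**
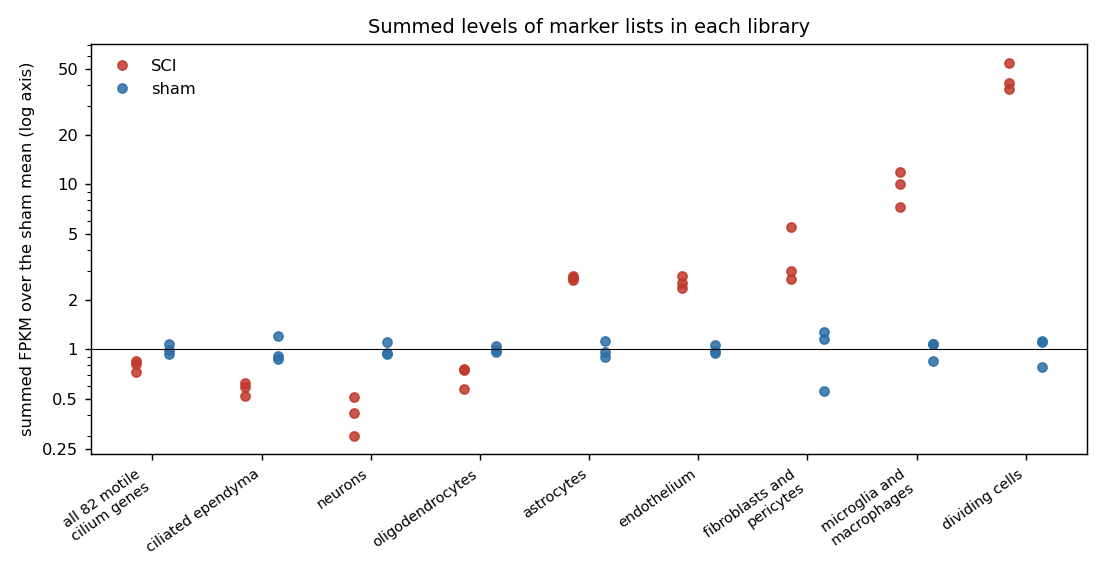
Summed FPKM of the 82 motile cilium genes and of 8 marker lists in each library, divided by the sham mean of that sum (log axis), SCI left of sham. The SCI sums of the cilium genes, of ciliated ependyma, of neurons and of oligodendrocytes lie below all sham sums, and those of astrocytes, endothelium, fibroblasts and pericytes, microglia and macrophages and dividing cells lie above them.

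Other genes of ciliated cells were set beside the members. Over all genes tested, 30.8% fell and 26.7% rose, with a median log2 change of -0.08. Of 43 axonemal genes under other names, 32 were tested, and 13 fell (40.6%) and 1 rose (3.1%), with a median log2 change of -0.29. They include the nexin link gene Ccdc65 (3.20 ± 1.03 FPKM in SCI and 6.99 ± 0.385 FPKM in sham, SD, n = 3 each, log2 change -0.96). The outer arm light chain Dnal1 also fell (-0.54). Without sham replicate 1, 8 of this list were changed in place of 14, beside 23.7% lower and 24.2% higher of all genes. With no filter on low values 9 of 43 were changed, beside 4858 lower and 4770 higher of 33526 genes. The intraflagellar transport genes, which build motile and primary cilia alike, had 14 of 24 lower (58.3%) and 0 higher, with a median of -0.35. The kinesin subunits Kifap3 (75.5 ± 19.0 FPKM in SCI and 145 ± 1.00 FPKM in sham, SD, n = 3 each, log2 change -0.97) and Kif3a (-0.86), which neurons also use for axonal transport, had the largest falls. This count was 9 without sham replicate 1, 7 without sham replicate 3 and 9 with no filter. Without sham replicate 3, 4177 of all 17435 genes fell and 4178 rose. The BBSome and transition zone genes had 10 of 23 lower (43.5%) and 1 higher (4.3%), with a median of -0.32. Ahi1 (-0.87), Bbs4 (-0.86) and Bbs2 (-0.70) were among those that fell. Under quantile normalization 18 of the list were changed, beside 36.5% lower and 25.1% higher of all genes.

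The remaining lists were split. Of 11 tested dynein arm assembly factors, 3 rose (27.3%, near the 26.7% of all genes tested) and 2 fell (18.2%, beside 30.8%). Dnaaf5 (log2 change 0.71) and the chaperone partner Pih1d1 (0.62) were among those that rose. The 2 that fell were Spag1 (-0.72) and Zmynd10 (-0.67). Ruvbl1, a general chaperone component, did not pass (-0.07). Of the genes that control multiciliation, 5 were tested, and 2 rose (40%, beside 26.7%), the cofactors E2f4 (0.58) and E2f5 (0.63). Of 12 ependymal genes outside the axoneme, 5 rose (41.7%, beside 26.7%) and 3 fell (25%, beside 30.8%). Vim, the intermediate filament vimentin that reactive astrocytes and macrophages also make, had 742 ± 130 FPKM in SCI and 38.6 ± 9.22 FPKM in sham (SD, n = 3 each, log2 change 4.24), and Nes, nestin, rose by 2.99 on the log2 scale. S100b, shared with astrocytes and oligodendrocytes, fell by 0.71 on the log2 scale, and Tppp3, a tubulin-binding protein, fell by 0.73. All calls in these lists are limma's at an adjusted p under 0.05.

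**Figure D5:**
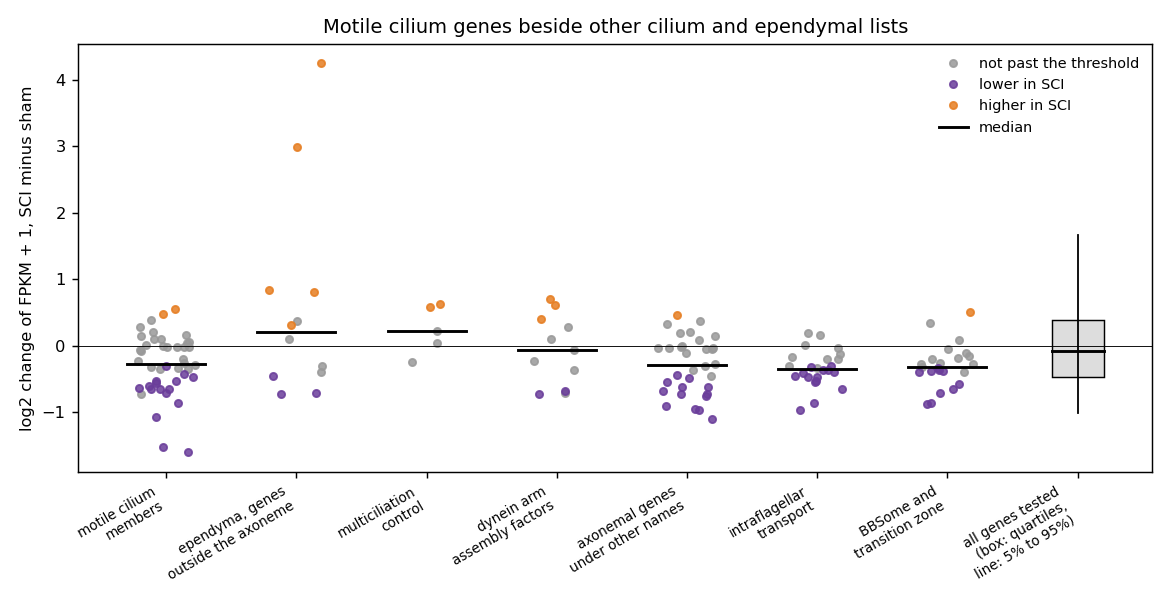
Log2 change of FPKM + 1, SCI minus sham, of each tested gene of the motile cilium members and 6 other lists, with the median of each list as a bar and all genes tested as a box of quartiles. The members' median is -0.27 and that of all genes -0.08, while the widest spread is among ependymal genes outside the axoneme, where Vim reaches 4.24.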

How the data were processed

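Per the file headers, the deposited values are the authors' FPKM, rounded to 2 decimals. StringTie 1.3.4d, HISAT2 2.0.4, cutadapt 1.9, edgeR, DESeq2 and UMI-tools stand in the submitters' processing notes, with the build mm9. The positions in the files are those of GRCm38: 33485 of 36502 gene IDs shared with GENCODE M21 (91.7%) had the same position, so GRCm38 positions are given as the files list them. The libraries were made with dUTP strand marking, per the labels' protocols. The strand setting of the quantification is not given in the sources used here. Of the 82 members, 21 overlap a gene whose mean reached 1 FPKM, 8 of them tested and 2 of these on the same strand.

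FPKM hold no counts and the depth is unknown: no step worth 1 read was found in low values, where the fullest bin of log2 ratios held 2.60% to 3.39% of 2039 to 2159 low genes. FPKM summed to 716215 to 734791 per library. FPKM are shares, so a gene that takes much of a library lowers the others.

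The 17435 genes that reached 1 FPKM in 3 or more of the 6 libraries were fitted on log2(FPKM + 1) in limma 3.58.1 (R 4.3.3), with group as the term and a trend of the variance with the mean. P-values were adjusted over all of them by the Benjamini-Hochberg method. The fit was tested on simulated data. The alternatives were 13: another pseudocount, other filters, other scalings, a replicate block and each library left out. The members and lists were chosen with earlier results of these data known. Any member may be named. Library values are given for Foxj1, Ccdc153 and Tmem212, the 12 changed members of largest change, the 6 most abundant, and members whose sign goes against their role group. Of the last, Cfap157, Ccdc114, Cfap206 and Cfap44 are given without library values. Each other list is named by its 2 most abundant genes and its 2 changed genes of largest change. Values of 1 gene so chosen are not reported here. Other values were chosen after they were seen.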

Additional observations from a re-analysis of the deposited data

How the results depend on the processing

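Of the 18 changed members, 9 kept the call in all 13 alternatives. The number of members that fell was 9 to 16 and the number that rose 1 to 3 when 1 library was left out. In those fits 4136 to 5222 of all 17435 genes fell and 4067 to 4709 rose. With median-ratio scaling 4 members rose, beside 30.8% of all genes. With no filter, 9 axonemal genes under other names and 9 intraflagellar transport genes were changed, beside 4858 lower and 4770 higher of 33526 genes. With 1 library left out 8 to 14 and 7 to 13 were changed. Under quantile normalization 18 BBSome and transition zone genes were changed and 23 members fell. Of all genes, 36.5% were lower and 25.1% higher in that fit. No member past the threshold changed sign. Among the others, the log2 change turned with median-ratio scaling for Cfap300 (0.071), Cfap36 (0.079), Ccdc40 (0.037), Rsph9 (0.018) and Rfx3 (0.057), and under quantile normalization for Cfap36 (0.020), Cfap126 (-0.11), Ccdc114 (-0.050), Cfap206 (-0.032) and Cfap44 (-0.078). Without mitochondrial and haemoglobin genes Cfap126 was at -0.00012. With 1 library left out, the log2 change ran from -0.12 to 0.055 for Cfap300, -0.11 to 0.11 for Cfap36, -0.12 to 0.11 for Cfap126, -0.15 to 0.34 for Tekt1, -0.016 to 0.12 for Ccdc114, -0.090 to 0.067 for Ccdc40, -0.011 to 0.10 for Cfap206, -0.062 to 0.087 for Cfap44, -0.19 to 0.073 for Rsph4a, -0.20 to 0.13 for Rsph9 and -0.045 to 0.045 for Rfx3. The causes were not tested.

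Whether the replicate numbers pair the samples is not given. The deviations of same-numbered libraries correlated with r of -0.0076, -0.039 and 0.022. These values show no shared deviation, but they cannot decide whether the samples were handled in pairs. With the replicate number as a replicate block, 15 members were lower and 3 higher, 4398 of all genes were higher and 5045 lower. Tmem212 then lost its call (limma adjusted p = 0.0504), and Rsph3b passed (0.28, limma adjusted p = 0.048).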
